A study of Mus musculus with 12 samples.

Results

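The Prss and Tmprss genes encode serine proteases, most of them of the trypsin family. They were chosen by symbol, as every row of the expression table whose gene symbol begins with Prss or Tmprss followed by a digit, and 54 of the 20788 rows met this rule. Of these, 35 had enough reads to be tested among 16388 genes. RNA-seq of whole testes from F1 mice gave 12 libraries in 4 groups of 3. The knockdown group descended from males whose testes had received a mix of lentiviruses with 3 hairpins against the long non-coding RNA lncRNA5251, and the 3NC fathers had received the LV3 control virus. In the overexpression lineage the fathers' virus carried lncRNA5251 for overexpression, and the 5NC fathers had received the LV5 control virus. Both control groups therefore carried a viral treatment in the father as well. Per the study's methods, the fathers were injected at 4 weeks of age and mated with untreated females at 9 weeks, and their sons were taken at 8 weeks, whereas the design text of the series states that the F1 testes were themselves transfected. The strain is written "IRC mouse" in the labels and ICR in the study, and no source used here ties each library to an animal of its own. The p-values thus measure the spread between libraries, which may be technical, and in whole testis fewer cells of a type cannot be told apart from less RNA per cell.

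Trypsin-like proteases cut proteins after lysine or arginine, with a serine in the active site that attacks the bond to be cut. Most are made as inactive precursors, and some members of the family have lost the catalytic residues and act without cutting. In the testis, many Prss genes are switched on in spermatocytes and spermatids, and their products sit in the acrosome or on the sperm surface, where several are needed for sperm to enter the oviduct or to bind the egg. The Tmprss genes encode proteases anchored in the membrane by a segment near the amino end, and most are known from airway, gut, liver or skin rather than from testis.

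The reference coding sequences were used to show which of the genes carry the codon for the active-site serine, since that residue carries out the cutting. RefSeq gene IDs matched all 54 members, and the coding sequences came from the GENCODE annotation of GRCm38, the same build as mm10. A serine codon was found in 46 members, another codon in 4 and no position that could be placed in 4. The members with another codon were Prss45, Prss50, Prss54 and Prss58, and the 4 left unplaced were Prss16, Prss23, Prss35 and Prss37. Among the 10 members with the highest mean level in these testes, 6 had the serine codon, 3 (Prss45, Prss54 and Prss58) did not and 1 (Prss37) was unplaced. The coding stretches around the position are shown for the most abundant member, the 4 members without the codon, the clustered genes on either side of Prss45 and Tmprss11a, each 33 bases long, with the codon at the active-site position in capitals.
Prss39: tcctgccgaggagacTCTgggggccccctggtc
Prss43: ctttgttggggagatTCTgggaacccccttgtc
Prss45: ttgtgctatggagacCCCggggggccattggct
Prss46: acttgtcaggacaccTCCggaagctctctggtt
Prss50: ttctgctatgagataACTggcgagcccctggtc
Prss54: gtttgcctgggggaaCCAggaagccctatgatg
Prss58: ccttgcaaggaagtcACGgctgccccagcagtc
Tmprss11a: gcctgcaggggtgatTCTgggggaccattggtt
The capitals spell a serine codon in Prss39, Prss43, Prss46 and Tmprss11a, a proline codon in Prss45 and Prss54, and a threonine codon in Prss50 and Prss58. These are reference sequences, and the libraries were not read for them.

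The libraries held 12719699 to 15771655 estimated reads. Markers of elongating spermatids summed to between 14190 and 19860 CPM (reads scaled to library size and composition) in every library. A pair of libraries stood apart by immune markers: 7 macrophage markers summed to 402 CPM in 3NC replicate 2 and 439 in knockdown replicate 1, against 92.1 to 113 in the other 10. Epididymal markers summed to 31.1 to 71.5 CPM in 3NC and 11.7 to 274 in 5NC, to 16.3 in knockdown replicate 1, and to at most 0.878 in the other knockdown and the overexpression libraries. The 3 hairpin sequences of the knockdown all matched transcripts of Purb, a gene for a nucleic acid-binding protein, and of no other annotated gene. Purb stood at 81.0 ± 2.88 CPM (SD, n = 3) in the knockdown group and 89.7 ± 11.2 (SD, n = 3) in 3NC. The exact two-sided permutation test gave p = 0.4, in a design where no p can go below 0.1, so it could not pass 0.05 whatever the values. Purb was at 82.9 ± 8.59 CPM in the overexpression group and 86.6 ± 9.22 in 5NC (exact permutation p = 0.8).

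The members spanned a wide range of levels, compared between genes as RPKM (reads divided by transcript length and library size, as the authors computed them). All 11 members known from sperm and all 6 of the cluster on chromosome 9 were tested, against 6 of 16 epithelial membrane proteases, 0 of 2 digestive proteases and 12 of 19 members known from other tissues. Mean RPKM over the 12 libraries was above 10 in 10 of the 11 sperm members, in all 6 clustered members and in 1 member, Prss47, of the other classes. The median of the class means was 54.3 RPKM for sperm members, 22.8 for the clustered members, 0.349 for the members of other tissues and 0.0937 for the epithelial membrane proteases.

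**Figure D1:**
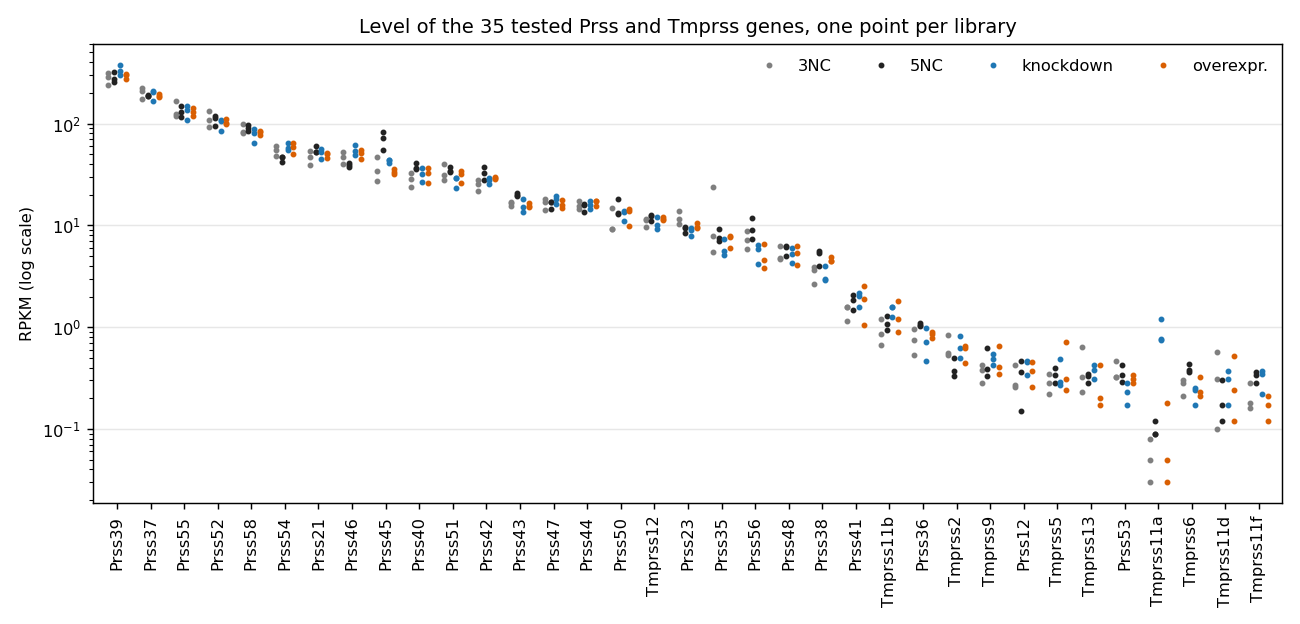
Level of each tested member in each of the 12 libraries, in RPKM on a log axis, ordered by the mean and coloured by group. Prss39 is at the left with a mean of 299 RPKM, Tmprss11f is at the right with 0.253, and the 3 knockdown points of Tmprss11a lie above the other 9 points of that gene.

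The 19 members that were not tested had 0 to 54 estimated reads over the 12 libraries together. The member just under the filter was Tmprss15 (enteropeptidase, which activates trypsinogen in the gut) with 54 reads, and the tested member with the fewest reads was Tmprss11d with 95. Prss22 had no read in any library, and 5 of the 19 had at most 3 reads. A count of 0 allows up to 3 reads, so absence was not shown. Prss2, a pancreatic trypsin, and Prss8, a channel-activating epithelial protease, were also among the untested members, with mean levels of 0.156 and 0.165 RPKM.

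Among the sperm members, Prss39, an acrosomal protease, was the most abundant, with 241 RPKM in the lowest library, a median of 302 and 378 in the highest. Its neighbour on chromosome 1, Prss40, also a protease of the acrosome, ranged from 23.7 to 41.3 RPKM with a median of 32.8. Prss37, which lacks cutting activity and is needed for the maturation of the sperm surface protein ADAM3, ranged from 166 to 224 RPKM with a median of 190. These genes kept a narrow spread: the highest library exceeded the lowest 1.57-fold for Prss39, 1.75-fold for Prss40 and 1.35-fold for Prss37.

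Prss55, Prss51 and Prss52 lie side by side on chromosome 14, from 64075435 to 64113751 in GRCm38. Prss55, which is needed for sperm to pass from uterus to oviduct, ranged from 109 to 168 RPKM, Prss52 from 84.8 to 132 and Prss51 from 23.3 to 39.9. The lowest value of all 3 was in knockdown replicate 1 and the highest in 3NC replicate 1. Prss58 ranged from 64.9 to 98.7 RPKM, Prss54, which takes part in forming the acrosome, from 42.2 to 64.6, and Prss21 (testisin, a protease anchored on the sperm surface) from 39.6 to 59.7. Tmprss12, a membrane protease needed for sperm to pass into the oviduct, ranged from 9.23 to 12.8 RPKM. Prss41, a protease of male germ cells, was the least abundant of the class, between 1.06 and 2.55 RPKM.

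Summed over its 11 members, the sperm class came to 1010 ± 174 CPM in 3NC, 977 ± 82.2 in 5NC, 1060 ± 146 in the knockdown group and 1015 ± 70.1 in the overexpression group (SD, n = 3). The group means thus lay within the spread between libraries. The 5 libraries with the lowest sums, from 816 to 977 CPM, were the same 5 that were lowest in the elongating spermatid markers. They were 3NC replicate 2, 5NC replicates 2 and 3, knockdown replicate 1 and overexpression replicate 3. The part of cell composition in these values was not tested.

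The first comparison, knockdown against 3NC, addressed what the knockdown lineage changed. Tmprss11a, scarcely read in the other libraries, had reads in every knockdown library at a level above them all, and the abundant sperm proteases lay near their control levels. No member passed an adjusted p of 0.05 in edgeR's quasi-likelihood test, nor did any of the 16388 genes (0%). Before adjustment, p was under 0.05 for 4 of 35 members (2 higher, 2 lower), beside 5.64% of all genes. Tmprss11a was among the 4 and passed the filter through its knockdown libraries alone, so nothing is read from this count. By limma-trend on log2 CPM 0 members were called as well. DESeq2 called 16 genes (0.0789% of those it adjusted), 1 of them a member, Tmprss11a. The 3 libraries of one group lay outside the range of the other 3 for 3 members, Prss41 and Tmprss11a higher and Prss23 lower, beside 11.3% of all genes. This count also holds Tmprss11a, so nothing is read from it either.

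Tmprss11a, a membrane protease of stratified and airway epithelium (gene ID 194597, chromosome 5 from 86410410 to 86469175), was the member that stood out in the knockdown group. Its estimated reads were 30, 29 and 47 in the knockdown libraries, 1, 3 and 2 in 3NC, 5, 3 and 3 in 5NC, and 2, 7 and 1 in the overexpression group. In CPM this was 1.90, 1.93 and 3.17 in the knockdown group, and at most 0.466 in each of the other 9 libraries. The knockdown libraries all lay above the other 9, as in 0.592% of all genes tested, a share from which nothing is read here. It entered the test through these 3 libraries alone, since the filter asked for about 0.655 CPM in 3 libraries and none of the other 9 reached it. Being tested thus depended on its level in the knockdown group, and its place among the tested members is given as a description.

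The log2 fold change of Tmprss11a in knockdown against 3NC was 4.08 ± 0.55 (SE), with an unadjusted p of 1.08e-05 and an adjusted p of 0.178 in edgeR's test. With no filter on low counts, so that its level did not decide its entry, the values were 4.09 and an adjusted p of 0.194. With 6 reads in the control group and 106 in the knockdown group, the ratio was 17.8, with an exact 95% interval from 7.91 to 49.6 that covers counting error only. Against the other 9 libraries together, with 27 reads, the ratio was 11.4 (interval 7.44 to 18.2). DESeq2 gave an adjusted p of 0.00311, the only one of 23 alternative fits under 0.05. The adjusted p was 0.0569 without overexpression replicate 2 and otherwise between 0.0979 and 0.769. Even in the knockdown group the gene was rare, at 0.74 to 1.21 RPKM. With 3NC replicate 2 and knockdown replicate 1 left out, the libraries with high macrophage markers, the fold change came to 4.55 on the log2 scale. Of 6 markers of epithelium, 4 were tested, with 1 above 0 and 0 called in this comparison. The 6 summed to 34.2 to 39.6 CPM in the knockdown group and 41.5 to 41.8 in 3NC. The part of epithelial cells in the value of Tmprss11a was not tested.

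Tmprss11a sits in a row of 7 related genes over 514 kb of chromosome 5, of which 4 were tested. In the same comparison the log2 fold change was 0.71 ± 0.31 (SE) for Tmprss11b, 0.52 ± 0.34 for Tmprss11f and -0.21 ± 0.64 for Tmprss11d, all proteases of epithelial surfaces. Tmprss11b had 41, 51 and 50 reads in the knockdown group and 27, 21 and 39 in 3NC (unadjusted p = 0.0450, adjusted p = 0.764, edgeR). Of the 7 tested genes within 500 kb of Tmprss11a, 1 (14.3%, beside 5.64% of all genes) had an unadjusted p under 0.05, namely Tmprss11b, and their log2 fold changes lay between -0.25 and 0.71.

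The members lower in the knockdown group with the smallest p were Prss23 and Prss35, a pair of secreted proteases known from the ovary. Prss23 (gene ID 76453) stood at 20.9, 23.1 and 18.8 CPM in 3NC and at 13.7, 16.2 and 17.4 in the knockdown group, with no overlap. Its difference was -0.41 ± 0.12 on the log2 scale (SE), with an unadjusted p of 0.00542 and an adjusted p of 0.764 in edgeR's test, and it was -0.24 with 3NC replicate 2 and knockdown replicate 1 both left out. The 3NC libraries were also above those of 5NC, at 16.3, 14.8 and 16.5 CPM, and of the overexpression group, at 16.97, 17.1 and 18.4, which made Prss23 the 1 member with every 3NC library above the other 9, as in 0.214% of all genes.

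Prss35 (gene ID 244954) showed a single library at a high level. It stood at 73.2 CPM in 3NC replicate 2 and at 24.7 and 19.6 in the other 3NC libraries, and at 23.3, 19.4 and 18.0 in the knockdown group. Its fold change on the log2 scale was -0.95 ± 0.39 (SE, adjusted p = 0.764, edgeR) with all libraries, and -0.13 without 3NC replicate 2. The high library was one of the 2 with high macrophage markers, whose part in this value was not tested. Markers of the somatic cells of the testis were also read in this comparison. Of 6 Leydig markers, none was called, 2 lay above 0 and 3 had an unadjusted p under 0.05, with a median of -0.82 and values of -1.20 ± 0.30 (SE) for Lhcgr, the receptor for luteinizing hormone, -1.17 ± 0.35 for Cyp17a1 and -0.97 ± 0.28 for Star, both of steroid synthesis (adjusted p = 0.764 for each, edgeR). Summed, they came to 1030 to 2007 CPM in 3NC and 1051 to 1393 in the knockdown group. Of 7 Sertoli markers, none was called, 3 lay above 0 and 1, Wt1 at -0.46 ± 0.15 (adjusted p = 0.764, edgeR, and -0.28 without 3NC replicate 2), had an unadjusted p under 0.05, with a median of -0.0038 and sums of 673 to 900.0 and 782 to 840 CPM. Their part in Prss23 and Prss35 was not tested.

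The sperm members stayed close to 0 in the knockdown group. Their log2 fold changes lay between -0.28 (Prss51) and 0.44 (Prss41), with a median of -0.04, beside a median of 0.05 for the 35 tested members and -0.02 for all 16388 genes. None of the 11 had an unadjusted p under 0.05. Prss39 was at 0.27 ± 0.15 (SE), Prss37 at -0.05 ± 0.13 and Prss55 at -0.04 ± 0.18. For the clustered genes the range was -0.04 to 0.27, and none of the 6 had an unadjusted p under 0.05.

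**Figure D2:**
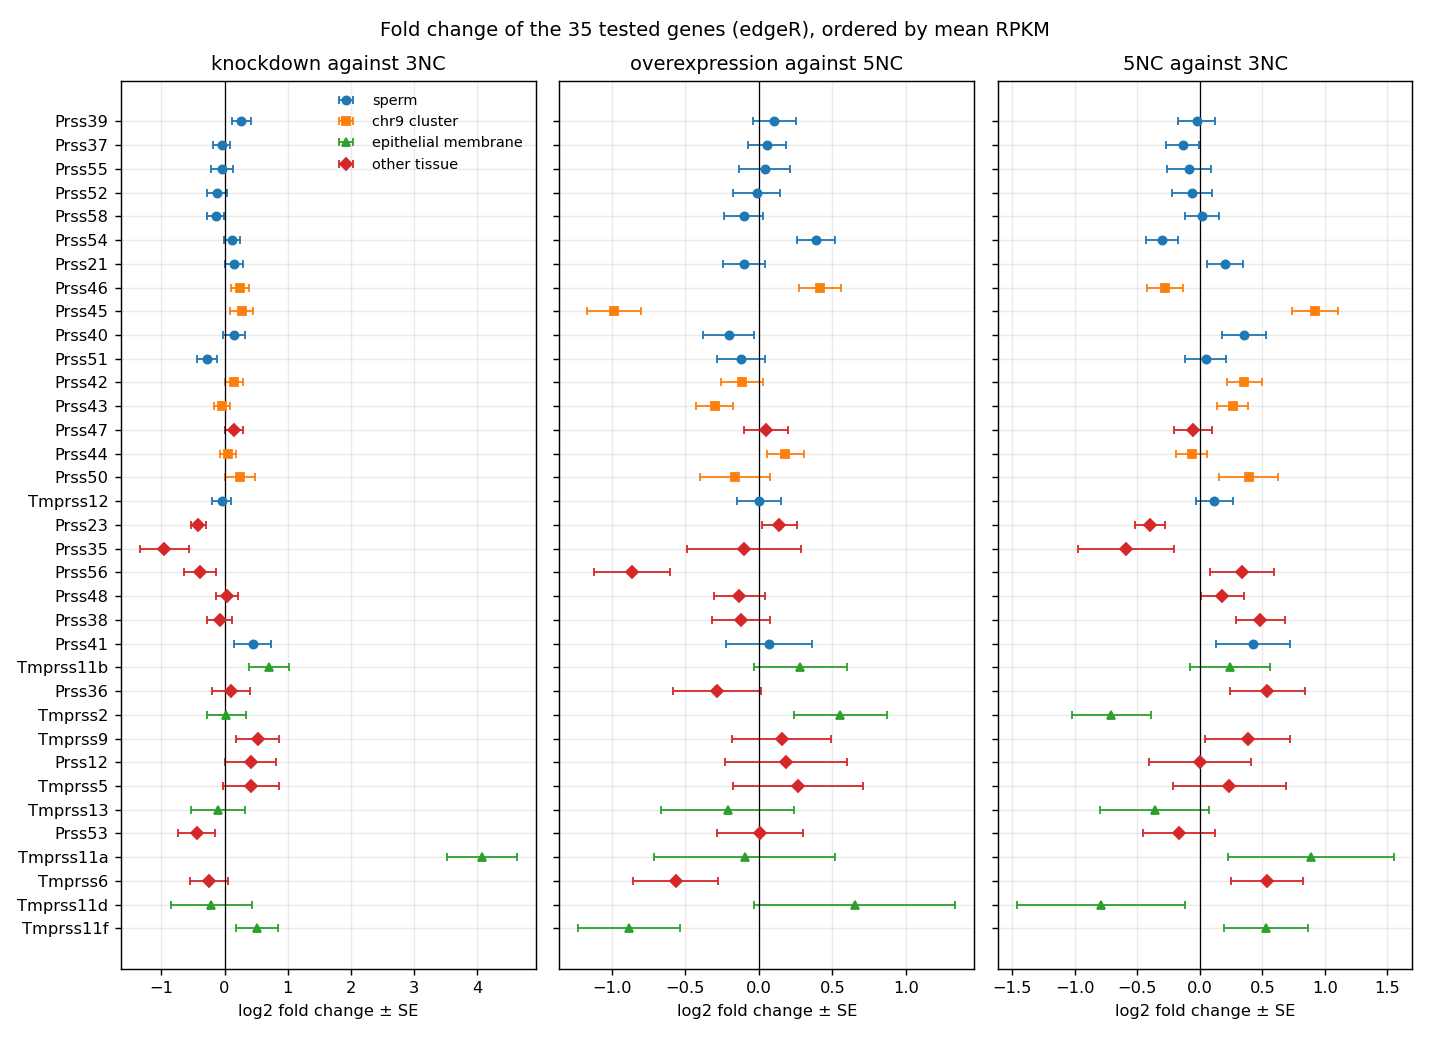
The log2 fold change of each tested member with its SE from edgeR, for knockdown against 3NC, overexpression against 5NC and 5NC against 3NC, with members in order of mean RPKM, the marker showing the class and each panel on its own horizontal scale. Tmprss11a lies at 4.08 in the first panel, and Prss45 lies at -0.99 in the second and 0.92 in the third, which share the 5NC libraries.

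The second comparison, overexpression against 5NC, addressed what the overexpression lineage changed. Prss45 was at about 0.505 of its 5NC level, its neighbour Prss46 at 1.33 times and the sperm protease Prss54 at 1.31 times, by the ratio of mean CPM. No member passed the adjusted threshold in edgeR's test, in which 51 of the 16388 genes did (0.311%). The member nearest to the threshold was Prss45, at an adjusted p of 0.0597. Before adjustment, p was under 0.05 for 6 of 35 members, Prss46 and Prss54 higher and Prss43, Prss45, Prss56 and Tmprss11f lower, beside 11.9% of all genes. Prss45 was the 1 member called by DESeq2, which called 323 genes in all (1.89% of those it adjusted), with 0 by limma-trend on log2 CPM. Groups did not overlap for 9 members, 3 higher and 6 lower, beside 21.3% of all genes.

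Prss45 (gene ID 260408, chromosome 9 from 110834588 to 110841310) is a clustered testis gene whose reference has proline in place of the active-site serine. It stood at 89.0, 58.2 and 77.4 CPM in 5NC and at 37.9, 40.1 and 35.3 in the overexpression group, with no overlap. The 3NC libraries had 51.6, 35.3 and 31.4 CPM and the knockdown libraries 47.0, 46.1 and 49.8. The 5NC libraries were thus above the other 9, as they were for 4 of 35 members (Prss36, Prss43, Prss45 and Tmprss6) and 2.84% of all genes, while the overexpression group lay within the range of 3NC.

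The log2 fold change of Prss45 was -0.99 ± 0.18 (SE) in overexpression against 5NC, with an unadjusted p of 2.12e-04 in edgeR's test. In 23 alternative fits on the same libraries or some of them, the fold change lay between -1.14 and -0.84. The adjusted p lay under 0.05 in 10 of these fits and over it in 13. Leaving out each 3NC library in turn, which enters the common estimate of spread but not the comparison, brought it to between 0.0336 and 0.0460, and leaving out any other single library gave between 0.0717 and 0.247. In 5NC against 3NC, which uses the same 5NC libraries, the log2 fold change was 0.92 ± 0.18 (adjusted p = 0.0945, edgeR). In knockdown against 3NC it was 0.27 ± 0.18 (adjusted p = 0.764). Epididymal markers were at 11.7 CPM in 5NC replicate 1, where Prss45 was highest, and at 274 in 5NC replicate 2, where it was lowest of the 3.

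Some markers of other cells also differed in the contrasts that use 5NC. Of 7 spermatocyte markers, Spo11, which makes the DNA breaks of meiosis, was called lower in overexpression against 5NC (log2 fold change -0.51 ± 0.09 SE, adjusted p = 0.0452, edgeR), a call lost in 9 of the 12 fits that left out a library. The list lay above 0 for 3 of 7 with a median of -0.21. In 5NC against 3NC all 7 lay above 0 with a median of 0.14, none called. The list summed to 1026 to 1257 CPM in 3NC, 1071 to 1395 in 5NC and 1093 to 1285 in the overexpression group. Of 5 blood markers, the beta-globin genes Hbb-bs and Hbb-bt were called in both contrasts, higher in overexpression and lower in 5NC. Hba-a1, Hba-a2 and Alas2 were not called. Their log2 fold changes were 0.43, 0.38 and 0.07 in overexpression against 5NC and 0.24, -0.43 and -0.02 in 5NC against 3NC. The 5 markers summed to 40.3 to 81.3 CPM in 3NC, 48.7 to 56.5 in 5NC and 52.0 to 102 in the overexpression group. Leaving out each library in turn lost the call of Hbb-bt in 9 of 12 and 6 of 12 fits and that of Hbb-bs in 0 of 12 of either. Hbb-bs stood at 0, 0 and 0.0737 CPM in 5NC and at 3.22 to 14.1 in the other 9 libraries, though reads of the near-identical pair may be split between them. The part of these cells and of the epididymal RNA in the value of Prss45 was not tested.

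Prss45 lies in the middle of a cluster of 6 Prss genes on chromosome 9, from 110797248 to 110864629. In order along the chromosome, the cluster holds Prss42, Prss44, Prss43, Prss45, Prss46 and Prss50. Prss42 and Prss43 are known for roles in the survival of germ cells through meiosis, and Prss50 for its threonine at the active site. Mean levels ran from 12.9 RPKM for Prss50 to 47.7 for Prss46, with 45.7 for Prss45.

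Prss46, the next gene after Prss45, had the opposite sign to it in the overexpression group. It stood at 45.7, 42.9 and 40.6 CPM in 5NC and at 63.7, 58.3 and 50.5 in the overexpression group, and the groups did not overlap. Its log2 fold change was 0.42 ± 0.14 (SE, unadjusted p = 0.0142, adjusted p = 0.277, edgeR). In the controls, 3NC had 53.1, 41.9 and 61.5 CPM, so that 5NC overlapped the low end of 3NC, and the knockdown group had 58.4, 70.3 and 56.5. The reads of Prss45 divided by those of Prss46 in the same library gave 1.95, 1.36 and 1.91 in 5NC. The ratio was 0.971, 0.843 and 0.510 in 3NC, 0.805, 0.656 and 0.881 in the knockdown group, and 0.595 to 0.70 in the overexpression group. It was above 1 in the 5NC libraries and below 1 in the other 9. The ratio restates the opposite differences of these genes, and other pairs of genes were not read this way. Nothing further is read from it.

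Of the remaining clustered genes, Prss43 stood at 37.8, 35.4 and 36.0 CPM in 5NC and at 28.5, 29.2 and 30.9 in the overexpression group (log2 fold change -0.30 ± 0.12 SE, adjusted p = 0.375, edgeR). Its 5NC libraries were above the other 9. The log2 fold change in the overexpression group was -0.12 ± 0.14 (SE) for Prss42, -0.16 ± 0.24 for Prss50 and 0.18 ± 0.13 for Prss44. Of the 6 clustered genes 2 thus had values above 0 and 4 below, none of them called. Of 26 tested genes within 500 kb of Prss45, 5 of them clustered members, none was called in this comparison and 5 (19.2%) had an unadjusted p under 0.05, beside 11.9% of all genes. Their log2 fold changes lay between -3.62 and 2.67. The lowest was that of Tdgf1, a co-receptor of the growth factor Nodal (-3.62 ± 0.76 SE, adjusted p = 0.0920, edgeR), and Trank1 was at -0.32 ± 0.08 (adjusted p = 0.157).

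**Figure D3:**
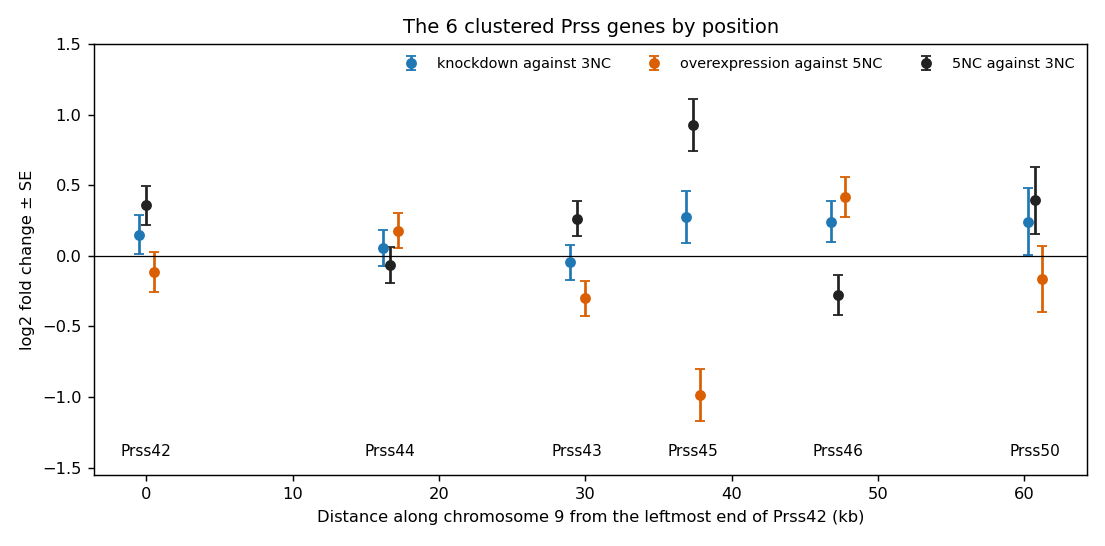
The log2 fold change of the 6 clustered genes with its SE from edgeR, plotted by distance in kb along chromosome 9 from the leftmost end of Prss42, for the 3 comparisons. Prss45 has the values farthest from 0, at -0.99 in overexpression against 5NC and 0.92 in 5NC against 3NC, and its neighbour Prss46 has values of the opposite sign, 0.42 and -0.28.

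Apart from the cluster, the lower members of smallest p in the overexpression group were Prss56 and Tmprss11f. Prss56, a secreted protease known for its part in eye growth (gene ID 69453), stood at 21.9, 13.4 and 16.3 CPM in 5NC and at 8.75, 12.5 and 7.14 in the overexpression group, without overlap. Its log2 fold change was -0.86 ± 0.26 (SE, unadjusted p = 0.00617, adjusted p = 0.201, edgeR). The 3NC libraries had 16.7, 12.6 and 11.5 CPM and those of the knockdown group 10.8, 12.5 and 7.97. Tmprss11f had 18, 24 and 19 reads in 5NC and 9, 13 and 10 in the overexpression group (log2 fold change -0.88 ± 0.35 SE, adjusted p = 0.342, edgeR).

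Among the sperm members, Prss54 had the smallest p in the overexpression group. It stood at 76.7, 68.2 and 76.4 CPM in 5NC and at 108, 98.0 and 84.3 in the overexpression group, with no overlap and a log2 fold change of 0.39 ± 0.13 (SE, unadjusted p = 0.0123, adjusted p = 0.263, edgeR). The other 10 had an unadjusted p above 0.05, and the class lay between -0.20 (Prss40) and 0.39 with a median of 0.00. The median of all 35 tested members was -0.02, and that of all 16388 genes was -0.01. Round spermatid markers, whose 7 genes were all above 0 in this comparison with a median log2 fold change of 0.36 and 1 called, Tex21 (0.43 ± 0.08 SE, adjusted p = 0.0485, edgeR, a call lost in 10 of the 12 fits without a library), summed to 1263 to 1429 CPM in 5NC and 1507 to 1811 in the overexpression group. Their part in the value of Prss54 was not tested.

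**Figure D4:**
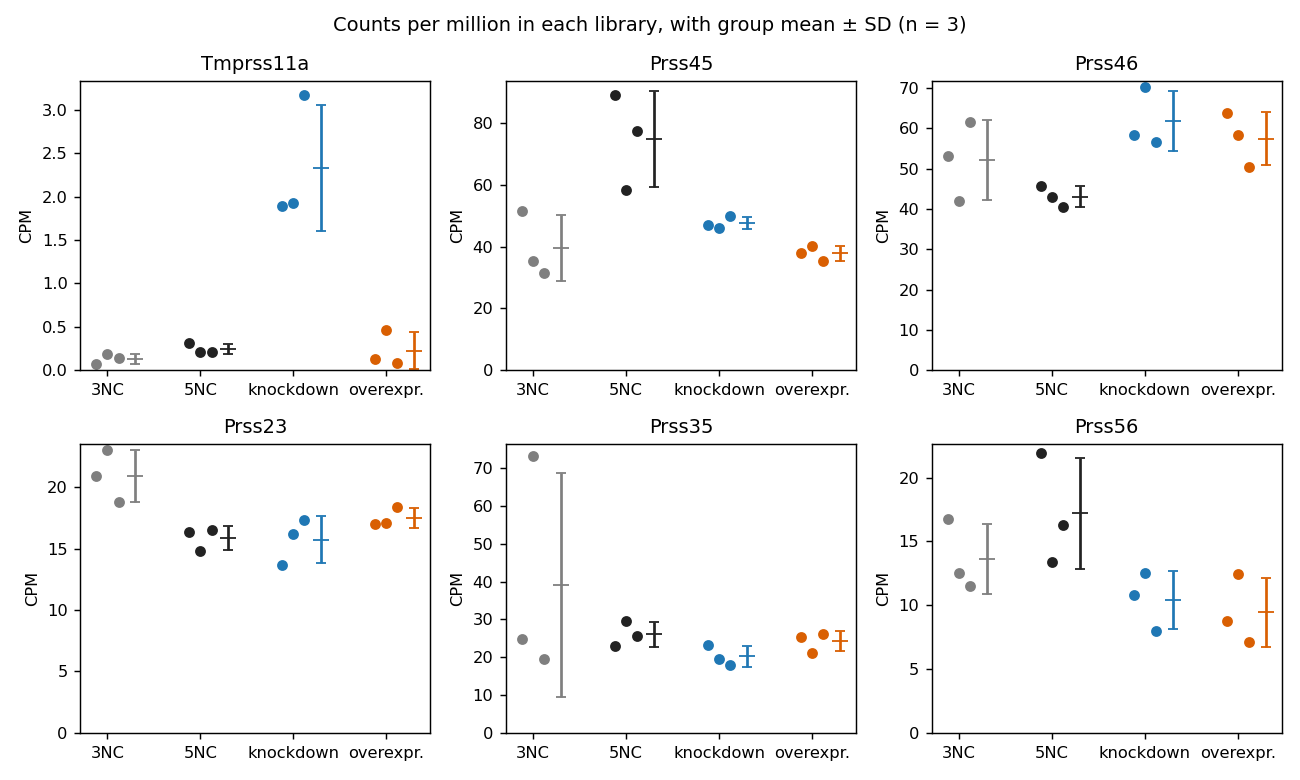
CPM of 6 members in each library (points), with the mean and SD of each group of 3 to the right of its points, on axes that start at 0. The points farthest above the others are the knockdown libraries for Tmprss11a, the 5NC libraries for Prss45 and 1 library, 3NC replicate 2 at 73.2 CPM, for Prss35.

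The third comparison, 5NC against 3NC, set the controls of the 2 vectors side by side and so gives the background between lineages without the lncRNA. Prss45 was at 1.9 times its 3NC level by the ratio of mean CPM, and Prss23 at 0.759. No member passed the adjusted threshold in edgeR's test, beside 21 genes in all (0.128%). Before adjustment, p was under 0.05 for 6 of 35 members, beside 10.8% of all genes, with 0 members called by limma-trend on log2 CPM. DESeq2 called 1 member, Prss45, beside 163 genes in all (0.931% of those it adjusted). The groups did not overlap for 9 members, 7 higher and 2 lower in 5NC, beside 13.0% of all genes.

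After Prss45, the higher member with the smallest p was Prss42, at 52.3, 38.7 and 45.9 CPM in 5NC and 40.1, 28.8 and 38.1 in 3NC, which overlapped (log2 fold change 0.36 ± 0.14 SE, adjusted p = 0.416, edgeR). Without 3NC replicate 2 its value was 0.22. For Prss23 the value was -0.40 ± 0.12 (log2 fold change, SE, adjusted p = 0.296, edgeR), and the same 3NC libraries served as the controls of the knockdown group. Prss54 was next among the lower members, at -0.30 ± 0.13 (SE, adjusted p = 0.447, edgeR) and at -0.18 without 3NC replicate 3. Prss38 was at 0.49 ± 0.20 and Tmprss2, known for cutting viral surface proteins in airway cells, at -0.71 ± 0.31. Tmprss2 had 13 to 20 reads in the 5NC libraries and 23 to 37 in 3NC, and its value was -0.45 without 3NC replicate 1. The sperm class lay between -0.30 and 0.43 with a median of 0.01, beside 0.12 for the 35 tested members and -0.02 for all genes.

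Scarcer members also had their 5NC libraries at the top. Tmprss6, a liver protease that restrains the iron hormone hepcidin, stood at 1.31, 1.13 and 1.07 CPM in 5NC and at 0.662, 0.870 and 0.878 in 3NC, and between 0.532 and 0.999 in the 6 libraries of the knockdown and overexpression groups. Prss36, a secreted protease with several catalytic domains, stood at 1.87, 1.90 and 1.86 CPM in 5NC and at 1.65, 0.932 and 1.28 in 3NC (log2 fold change 0.54 ± 0.30 SE, adjusted p = 0.536, edgeR). Both had 8 to 30 reads in any library, so counting error is large beside these differences. Prss38 did not overlap either, at 6.55, 4.92 and 6.15 CPM in 5NC and 3.44, 4.29 and 4.86 in 3NC (adjusted p = 0.431, edgeR), but the overexpression libraries, at 5.79, 5.39 and 4.998, lay among those of 5NC.

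The difference of the 2 lncRNA effects, knockdown against 3NC less overexpression against 5NC, was tested as a contrast of its own. No member passed the adjusted threshold in edgeR's test, beside 4 genes in all (0.0244%). Before adjustment, p was under 0.05 for 4 of 35 members, beside 4.63% of all genes. Tmprss11a, which passed the filter through its knockdown libraries alone, was among the 4, so nothing is read from this count. Prss45 was the 1 member called by DESeq2, which called 41 genes in all (0.219% of those it adjusted), with 0 by limma-trend on log2 CPM. The difference was 4.18 ± 0.85 (SE) for Tmprss11a (adjusted p = 0.239, and 0.282 without the filter that only its knockdown libraries passed), 1.26 ± 0.26 for Prss45 (adjusted p = 0.259), -0.55 ± 0.17 for Prss23 (adjusted p = 0.920) and 1.40 ± 0.48 for Tmprss11f (adjusted p over 0.99), all on the log2 scale in edgeR's test. The lower member with the next smallest p was Prss35, at -0.85 ± 0.55, and at -0.029 without 3NC replicate 2. The sperm class lay between -0.27 and 0.38, with 0 of 11 at an unadjusted p under 0.05.

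The genes that act with these proteases were read from lists. Of 17 genes for partners of the ADAM3 route, the set of chaperones and surface proteins on which sperm passage into the oviduct depends, 16 were tested and 0 passed the adjusted threshold in any of the 4 contrasts. The gene with the smallest p was Ly6k in knockdown against 3NC, at a log2 fold change of 0.25 ± 0.15 (SE, adjusted p = 0.764, edgeR) and at 0.13 without 3NC replicate 2. In overexpression against 5NC it was Adam1a, a part of the fertilin complexes, at 0.34 ± 0.10 (adjusted p = 0.181, edgeR), and Adam1a again in 5NC against 3NC, at -0.30 ± 0.10 (adjusted p = 0.337) and at -0.20 without 3NC replicate 3. Their median log2 fold change was -0.04 in the knockdown group and -0.06 in the overexpression group, and 0 of 16 and 2 of 16 had an unadjusted p under 0.05, beside 5.64% and 11.9% of all genes.

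Of 15 genes for acrosome contents, all tested, none passed either. In overexpression against 5NC 13 of 15 lay above 0, with a median of 0.26 and 6 at an unadjusted p under 0.05 (all genes 48.2% above 0, 11.9% under 0.05), and in 5NC against 3NC 4 of 15 lay above 0, with a median of -0.23. These contrasts share the 5NC libraries. The round spermatid markers lay the same way as this list, with 7 of 7 above 0 in the former (median 0.36) and 0 of 7 in the latter (median -0.26), and Acr, Acrv1 and Spaca1 are on both lists. The part of cell composition was not tested. Izumo1, the sperm protein that binds its receptor on the egg, had the smallest p in both, at 0.45 ± 0.13 (SE, adjusted p = 0.187) and -0.43 ± 0.13 (adjusted p = 0.296) in edgeR's test, the latter at -0.23 without 3NC replicate 3. In knockdown against 3NC it was Spaca4, a sperm protein that binds the coat of the egg, at 0.55 ± 0.23 (adjusted p = 0.764) and at 0.35 without 3NC replicate 2.

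Of 20 protease inhibitor genes, 14 were tested and 1 was called, Spint3, a Kunitz-type inhibitor of the epididymis. It had 16, 42 and 27 reads in 5NC and 1, 4 and 2 in the overexpression group, and its log2 fold change was -3.51 ± 0.52 (SE, adjusted p = 0.0206, edgeR). In 5NC against 3NC, which uses the same 5NC libraries, Spint3 was at 1.35 ± 0.43 (SE, adjusted p = 0.311, edgeR). The call was lost when 5NC replicate 2 or 3 or any overexpression library was left out, with an adjusted p of up to 0.149. The epididymal markers given above ran the same way between these groups, and their part in Spint3 was not tested. Serpina5, an inhibitor of acrosin and of other serine proteases, had the smallest p in knockdown against 3NC, at 0.33 ± 0.12 (SE, adjusted p = 0.764, edgeR). Of 14 tested genes for other trypsin-like proteases and 4 tested substrates or receptors, none was called in any contrast. Among the other trypsin-like proteases, the smallest p belonged to Htra1 in the knockdown group (log2 fold change -0.84 ± 0.44 SE, adjusted p = 0.764, edgeR) and to Klk1 in the overexpression group (-0.65 ± 0.26, adjusted p = 0.356). The value of Htra1 was -0.20 without 3NC replicate 2, where it stood at 25.8 CPM. Of the substrates and receptors, F2r, a thrombin receptor, had the smallest p in the knockdown group (-0.55 ± 0.59, adjusted p = 0.808, edgeR). Its direction rested on 3NC replicate 2, at 16.7 CPM beside 2.91 and 2.63 in the other 3NC libraries, and turned to 0.87 without it (adjusted p = 0.772, edgeR). Of the other proteases, the smallest p in the vector controls was that of Gzmb, granzyme B of lymphocytes, in 5NC against 3NC (-7.85 ± 2.43, adjusted p = 0.301, edgeR). Gzmb stood at 99.2 CPM in 3NC replicate 2 and at 0.662 and 0.338 in the other 3NC libraries, and its value was -1.82 without that library. Lymphocyte markers summed to 25.3 CPM in 3NC replicate 2 and to between 1.5 and 4.92 in the 10 libraries other than it and knockdown replicate 1. In the difference of the 2 effects none of the genes on these 5 lists was called, and the smallest p on 4 of them were those of Adam1a, Izumo1, Spint3 and St14.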

How the data were processed

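RNA-seq of testes gave 12 libraries, grouped by their titles. Per the methods, the authors aligned reads to mouse genes with SOAPaligner (build mm10 per the labels) and computed RPKM. Unscaled estimated counts for each gene are deposited beside the RPKM values. The authors' calls came from DEGseq, which does not model replicate spread. The 18 per-sample columns of other groups and the pooled averages were not used.

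Estimated counts were rounded, filtered with filterByExpr (16388 of 20788 genes left) and scaled by TMM. One edgeR 4.0.16 quasi-likelihood fit in R 4.3.3 held all 12 libraries, with Benjamini-Hochberg adjustment over all genes tested and a threshold of 0.05. Depth was 12719699 to 15771655 estimated reads, so members with few reads have wide counting error. Alternatives used DESeq2 1.42.0, limma 3.58.1, other scaling, filters and left-out libraries. The scripts were tested on simulated data.

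The members were chosen by symbol, and classes, lists and alternatives by hand, with earlier results of these data known. Named were the 2 higher and 2 lower members of smallest p per contrast, the 10 of highest mean RPKM, all sperm and clustered members and Tmprss11a. From each partner list every called gene was named, or else that of smallest p. Some of these values are not reported here. Genes shown beside these were picked with their values in view. The active-site codon was found as a Gly-Asp-Ser-Gly motif in coding sequence, or by alignment with the members that hold it.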

Additional observations from a re-analysis of the deposited data

How the results depend on the processing

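The 20 member fold changes with an unadjusted p under 0.05 kept their direction in the 20 to 23 alternative fits run for each. They were picked for that p and refitted on the same libraries or some of them. A kept direction was thus close to fixed beforehand, and nothing is read from it. No member was called in the reported fits, and a count of 1 called member came from DESeq2 in all 4 contrasts (Tmprss11a in knockdown against 3NC, Prss45 in the others). In overexpression against 5NC, Prss45 made the count 1 with total counts without scaling, only the 6 libraries compared, 3NC replicate 2 and knockdown replicate 1 both left out, both limma-trend fits on log2 RPKM and the robust option. Leaving out 1 library gave 0 to 1 called members in overexpression against 5NC (1 without any 3NC library) and 0 to 1 in 5NC against 3NC (1 without 3NC replicate 1). Among all genes, DESeq2 called 16 in knockdown against 3NC (reported 0), 323 in overexpression against 5NC (51), 163 in 5NC against 3NC (21) and 41 in the difference (4). Leaving out 1 library gave 0 to 12, 9 to 87, 3 to 35 and 2 to 10. The extremes were without 3NC replicate 3 for 12, 87 and 10, without 5NC replicates 2 or 3 for 9, without 5NC replicate 3 for 3, without 3NC replicate 2 for 35 and without 5NC replicate 2 for 2. With both immune-marked libraries left out, overexpression against 5NC gave 159 and 5NC against 3NC 45. With only the 6 libraries the counts were 107 and 7, total counts gave 33 in 5NC against 3NC, and log2(RPKM + 0.1) gave 82 in overexpression against 5NC. The difference could not be fitted with 6 libraries. Chosen after seeing the data, leaving out 3NC replicate 2 turned F2r in knockdown against 3NC from -0.55 to 0.87, and leaving out both immune-marked libraries to 0.45. Leaving out any library in turn gave -0.97 to 0.87. The cause of these shifts was not tested.

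Replicate numbers are shared between groups, but the deviations of same-numbered libraries correlated between -0.641 and 0.386, so the numbers were not taken as pairs. With the replicate block, 21 genes were called in overexpression against 5NC, 5 in 5NC against 3NC, 2 in the difference and 0 in knockdown against 3NC, with 0 members in each.

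Depth limits the rare members: Tmprss11a, Tmprss11d and Tmprss11f had at most 47, 17 and 25 reads in any library. The limma-trend fold change of Tmprss11a on log2(RPKM + 1), 0.84, is lower than the 4.08 of edgeR since the pseudocount exceeds the levels in most libraries. Reads were aligned with a setting for repeat hits (-r 2), and how such reads were then shared between related Prss or Tmprss11 genes is not stated.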
